A study of Mus musculus with 6 samples.

Results

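The sine oculis homeobox, EYA and DACH genes examined here are Six2, Six4, Six5, Eya1, Eya2, Eya3, Eya4 and Dach1, 8 of the 55536 genes in the count tables, taken by family membership and GENCODE M21 symbol. RNA was measured in satellite cells, the muscle stem cells, of C57BL/6J males aged 8 to 12 weeks, sorted 5 days after injury of the tibialis anterior and cultured for 48 h with serum and bFGF. The 3 control samples were Pax7CreErt2;Hira fl/+ (WT in the sample labels) and the 3 cKO samples were Pax7CreErt2;Hira fl/fl. Both groups therefore carried the tamoxifen-inducible Cre, which is expressed from the satellite cell gene Pax7, and at least 1 floxed Hira allele, and both received a tamoxifen diet for 2 weeks and regular food for 1 week. Hira encodes a chaperone that places the histone variant H3.3 on DNA. No source used here says that each sample came from a separate mouse, so p-values measure the spread between these samples, which may be technical.

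Sine oculis proteins, such as those of Six2, Six4 and Six5, are homeodomain transcription factors that bind MEF3 sites. EYA proteins do not bind DNA themselves. They join sine oculis proteins as coactivators and carry a tyrosine phosphatase activity. DACH proteins join the same complexes with corepressors and can switch their targets from activation to repression. In muscle, sine oculis and EYA proteins act upstream of the myogenic factors Myf5, Myod1 and Myog and of genes of the fast fibre programme.

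Of the member genes, Eya4, the most abundant, was lower in cKO cells by 13.2%, a call that was lost when samples were scaled to satellite cell markers, which were also lower. Eya2, a gene of lower abundance, was higher 1.36-fold. Six4 was lower by 7.89% in a call that did not hold under every alternative. Dach1 was 2.73-fold higher at very low counts, but it passed the filter on low counts through the cKO samples alone. Its direction in that filtered fit was therefore fixed by being tested. Six2, Six5, Eya1 and Eya3 did not pass the test. Within the EYA genes the balance of Eya4 to Eya2 per length went from 19.3 to 20.9 in controls to 11.5 to 14.4 in cKO samples, with no overlap between the groups. This ratio restates the changes of Eya4 and Eya2. Its exact permutation test gave an adjusted p of 0.18 and could not pass the threshold in this design.

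Where the members lie bears on how their reads were counted. On mm10, Six2 spans chr17:85684277-85688274 on the minus strand, Six4 chr12:73099609-73113456 on the minus strand and Six5 chr7:19094594-19098549 on the plus strand. Eya1 spans chr1:14168954-14310235 (minus), Eya2 chr2:165595032-165771727 (plus), Eya3 chr4:132638987-132724765 (plus) and Eya4 chr10:23102963-23350786 (minus). Dach1 spans chr14:97786853-98169765 (minus). The sine oculis genes are compact, with 2 or 3 separate exon blocks, while the EYA genes have 18 to 26 and Dach1 has 12. No exon of a member overlapped an exon of another annotated gene on either strand. No 75-base stretch, the read length, was common to the transcripts of any pair of members. Outside the family, 0.174% of the 75-base windows of Six4 and 0.048% of those of Six2 occurred in another gene, and none of the others did.

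Promoter sequence is shown for 3 members that passed the test, since the MEF3 site is the letter pattern that sine oculis proteins bind. RefSeq promoters on GRCm38.p6, running from 250 bases before the start to 50 after it, were matched for 6 of the 8 members and gave 8 promoters. The 3 below lie on the minus strand at chr12:73113196-73113495 (Six4), chr10:23349894-23350193 (Eya4) and chr14:98169716-98170015 (Dach1), and capitals mark a match to the full MEF3 letters TCAGGTTTC read on the opposite strand.
Six4: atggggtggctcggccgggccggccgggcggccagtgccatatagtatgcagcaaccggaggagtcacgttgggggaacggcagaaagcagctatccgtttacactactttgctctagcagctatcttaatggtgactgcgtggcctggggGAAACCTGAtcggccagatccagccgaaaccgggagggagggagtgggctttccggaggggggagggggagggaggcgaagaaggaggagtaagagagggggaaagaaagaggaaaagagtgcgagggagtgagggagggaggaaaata
Eya4: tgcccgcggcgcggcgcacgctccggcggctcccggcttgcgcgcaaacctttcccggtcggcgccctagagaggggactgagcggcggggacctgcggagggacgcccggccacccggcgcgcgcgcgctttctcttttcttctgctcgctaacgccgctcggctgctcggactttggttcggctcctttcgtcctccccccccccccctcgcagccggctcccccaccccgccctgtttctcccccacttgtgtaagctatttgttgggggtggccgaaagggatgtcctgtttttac
Dach1: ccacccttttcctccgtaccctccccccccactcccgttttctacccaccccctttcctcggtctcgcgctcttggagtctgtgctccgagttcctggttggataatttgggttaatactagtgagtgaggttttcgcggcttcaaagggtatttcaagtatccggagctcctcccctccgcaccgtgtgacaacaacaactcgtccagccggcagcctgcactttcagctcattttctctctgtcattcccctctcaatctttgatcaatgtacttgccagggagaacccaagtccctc
The Six4 match begins 99 bases before the transcript start used for the promoter shown. Its shorter core, TCAGGTT, lies within the same match, so these are 1 occurrence. The full letters were found on either strand in 0.429% of 32851 RefSeq promoters of this length and the core in 4.07%. The E-box CAGCTG, one of the letter patterns bound by myogenic factors such as MYOD1, was in 16.3% of all promoters and in none of the 8 member promoters. The other 7 member promoters held neither the full MEF3 letters nor the core. The second Six4 promoter starts upstream, and its window ends before the match. From that start the match lies downstream, within the Six4 span given above. The 8 promoters had GC contents of 54.0% to 69.3%, against a median of 52.7% over all promoters. A match of letters is not evidence of binding.

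The counts summed to 47944477 to 63323577 per sample, and 22404 genes were tested. Of these, 15.8% were called at an adjusted p under 0.05, with 9.38% higher in cKO and 6.46% lower. All 8 members passed the filter on low counts, Dach1 through its cKO samples alone, and 2 of them were called higher, 2 lower and 4 neither. Called genes were higher in cKO in 59.2% of cases, and in 70% when samples were scaled to their total counts. The targeted gene, Hira, was 6.63, 5.5 and 5.55 CPM (counts scaled to the same total in every sample) in control 1 to 3 and 3.36, 4.95 and 4.87 CPM in cKO 1 to 3, a log2 fold change of -0.43 ± 0.12 (SE, edgeR quasi-likelihood test, Benjamini-Hochberg adjusted p = 0.0237, n = 3 per group). Without control 1 this was -0.34 and the adjusted p was 0.104. In separate assays of cKO satellite cells, the study reported a sharp fall of Hira by RT-qPCR and no detected HIRA protein. Part of the Hira exons, 44.7%, overlaps the same-strand gene Gm28539. The 9 satellite cell and myoblast markers were well expressed, at 5945 to 6005 CPM summed in controls and 5357 to 5691 CPM in cKO samples, and 7 of them fell and none rose. Markers of other cells mostly moved the other way. The 8 macrophage markers went from 107 to 112 CPM summed to 229 to 268 CPM and all 8 rose. The fibroblast and fibro-adipogenic markers went from 527 to 553 CPM to 783 to 875 CPM, with 4 of 6 tested higher. Of the endothelial markers 3 of 6 rose, of the smooth muscle and pericyte markers 4 of 5 rose and 1 fell, of the Schwann cell markers 1 of 4 rose, and of the 4 tendon markers 1 rose and 1 fell. No marker was at 0 in every sample. In bulk RNA, fewer cells of a type and less RNA per cell cannot be told apart, and the part of these marker shifts in the results that follow was not tested, except where a scaling to satellite cell markers is given.

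To place the genes in order, counts were divided by the length of all annotated exons and scaled to the same total in every sample (TPM). In controls Eya4 stood highest at 50.4 ± 1.65 TPM (SD, n = 3), above 92.6% of the genes with any count. Six4 followed at 23.1 ± 1.19 TPM, and Eya3 at 21.7 ± 0.558 TPM. A wide step then led to Eya1 at 3.88 ± 0.193 TPM. Six2 had 2.94 ± 0.194 TPM, Eya2 2.48 ± 0.0734 TPM and Six5 1.78 ± 0.0382 TPM. Dach1 was far below the rest at 0.037 ± 0.00513 TPM. The control samples of neighbouring genes in this order did not overlap, although those of Six4 (22.2 to 24.5 TPM) and Eya3 (21.1 to 22.1 TPM) nearly met.

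The cKO samples gave nearly the same order. Eya4 was again highest at 46.7 ± 0.92 TPM, with Six4 at 22.7 ± 1.33 TPM and Eya3 at 22.1 ± 0.699 TPM, now overlapping. Eya1 had 4 ± 0.152 TPM. Eya2, at 3.6 ± 0.481 TPM, overlapped Eya1 and stood above Six2, which had 2.76 ± 0.265 TPM. Six5 (1.85 ± 0.259 TPM) and Dach1 (0.11 ± 0.0344 TPM) remained last. Dividing by the longest transcript in place of all exons left the order of the upper 4 genes as it was in both groups, but then the control samples of Six2 (2.43 to 2.78 TPM) and Eya2 (2.54 to 2.68 TPM) overlapped and Eya2 stood above Six2 in both groups (means of 2.62 and 2.58 TPM in controls), so which of them is higher in controls depends on the length used. The cKO samples of Eya1 (5.95 to 6.4 TPM) and Eya2 (3.32 to 4.3 TPM) then no longer overlapped. Nor did those of Six4 (30.1 to 33.5 TPM) and Eya3 (20.5 to 21.6 TPM). In controls Six4 (31.1 to 34 TPM) and Eya3 (20.2 to 21 TPM) were then also well apart, so their closeness depends on the length used. TPM serves here for levels between genes within a group, since its scale depends on the whole sample, and changes between groups are given from the fit on counts. The reads were aligned without splitting across exon junctions, and EYA genes have more junctions than sine oculis genes. Its part in the order was not tested.

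**Figure D1:**
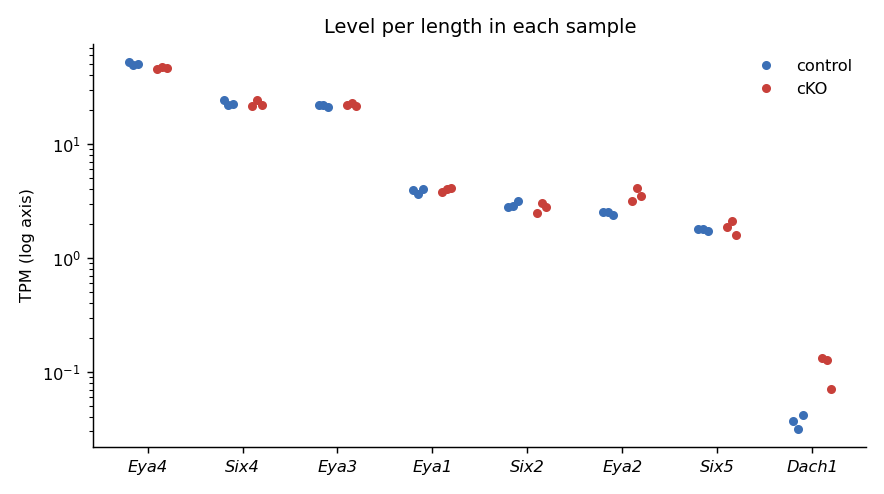
Level per length (TPM, log axis) of the 8 genes in each sample, with control samples in blue and cKO samples in red, ordered by the control mean. Eya4, Six4 and Eya3 stand between 21.1 and 52.1 TPM in every sample, and Dach1 stays at or under 0.133 TPM.

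Among the sine oculis genes, the transcription factors of the complex, Six4 was the most abundant and the one that passed the test. Six4 had 121, 115 and 117 CPM in controls and 106, 115 and 109 CPM in cKO samples. The groups overlapped, since cKO 2 reached the lowest control. The log2 fold change was -0.12 ± 0.03 (SE, 95% interval -0.19 to -0.04, edgeR adjusted p = 0.0294), a fall of 7.89% relative to the typical gene. Of 11 alternative settings, 5 kept this call and 6 did not, with adjusted p from 0.00684 to 0.138 and log2 fold changes from -0.15 to -0.09. Without control 1 it was 0.138, without control 3 0.0876, without cKO 1 0.0565, without cKO 3 0.0882, with total-count scaling 0.0944 and with a replicate block 0.0594. Scaled to the satellite cell markers, an alternative added after seeing the data, the difference was 0.03 (adjusted p = 0.71).

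Six2, which is known above all for keeping kidney progenitors undifferentiated, was counted 152, 184 and 196 times in controls and 114, 165 and 149 times in cKO samples. These were 2.93 ± 0.253 and 2.61 ± 0.212 CPM, and the groups overlapped. The log2 difference was -0.19 (95% interval -0.42 to 0.05, adjusted p = 0.298), an interval that runs from -25.1% to 3.18%. The spread between samples, 8.64% in controls, was close to the 7.91% that counting alone gives at this depth. Six3, which lies 54974 bases from Six2 on the other strand, had 0 or 1 count per sample and was not tested.

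Six5 lies 772 bases past the end of Dmpk, the kinase gene whose repeat expansion causes myotonic dystrophy, on the same strand. Six5 gave 2.51 ± 0.0527 CPM in controls and 2.48 ± 0.306 CPM in cKO samples. The control samples lay between 2.48 and 2.57 CPM and the cKO samples between 2.15 and 2.76 CPM, around the controls. The log2 difference was -0.05 (95% interval -0.29 to 0.20, adjusted p = 0.857), and it became 0.04 without cKO 3. Dmpk itself was at 520 ± 15.6 CPM in controls and 528 ± 8.45 CPM in cKO samples (adjusted p = 0.967).

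**Figure D2:**
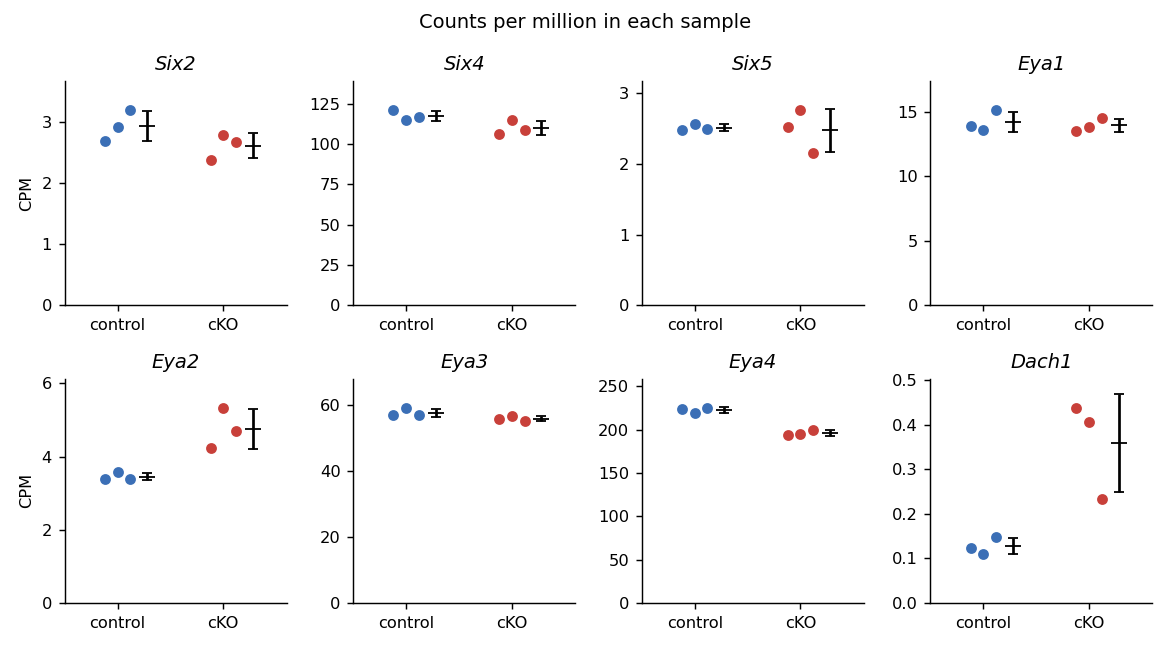
CPM of each gene in the 3 control (blue) and 3 cKO (red) samples, each panel with its own axis from 0, and the mean ± SD in black beside each group. The groups are separate for Eya2 and Dach1, with cKO above, and for Eya3 and Eya4, with cKO below.

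The EYA coactivators did not move as one. Eya4, the gene of the family in which variants cause hearing loss with heart muscle disease, had 224, 219 and 225 CPM in controls and 194, 195 and 200 CPM in cKO samples. All 3 cKO samples were below all 3 controls, as were the cKO samples of Eya3. Groups also did not overlap for Eya2 and Dach1, in the opposite direction. That is 4 of the 8 genes, where 31.4% of all tested genes had groups that did not overlap. Dach1 passed the filter through its cKO samples alone, so its part in this count was favoured by the filter. The Eya4 log2 fold change was -0.20 ± 0.03 (SE, 95% interval -0.27 to -0.14, adjusted p = 0.000207), a fall of 13.2%. The call held under all 11 alternative settings, with log2 fold changes from -0.22 to -0.18 and adjusted p up to 0.00341. Scaled to the satellite cell markers, which themselves were lower in cKO samples and which raised the median of all genes by 0.14, the Eya4 difference was -0.06 (adjusted p = 0.24). Relative to those markers, then, no fall of Eya4 was called. Des alone had a mean of 3199 CPM in controls, where the 9 markers summed to 5945 to 6005 CPM. Since 7 of the 9 fell in these same data, this scaling removes any fall that Eya4 shares with them. It therefore cannot decide whether Eya4 itself fell.

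Eya2 was counted 192, 226 and 208 times in controls and 203, 315 and 262 times in cKO samples. As CPM these were 3.4, 3.57 and 3.39 against 4.23, 5.33 and 4.69, so every cKO sample was above every control and the cKO samples spread more widely. The log2 fold change was 0.44 ± 0.09 (SE, 95% interval 0.24 to 0.64, adjusted p = 0.00438). It was called under all 11 alternative settings, with values from 0.35 to 0.51 and adjusted p from 0.000161 to 0.0252. Scaled to the satellite cell markers it was 0.59 (adjusted p = 0.000888). Because that scaling raised the median of all genes by 0.14, the larger value is no separate support for a rise. Eya2 rose while the macrophage and fibroblast markers above rose with it, and the part of those cells in its counts was not tested. The sort had kept ITGA7+ and CD34+ cells and discarded those positive for CD45, which marks leukocytes, SCA1 or TER119.

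Eya3, broadly expressed in many tissues, had 56.9, 59 and 56.8 CPM in controls and 55.6, 56.5 and 55.1 CPM in cKO samples. The cKO samples were all below the controls, but only narrowly. The log2 difference was -0.07 (95% interval -0.14 to 0.00, adjusted p = 0.19), and it was not called under any of the 11 alternative settings. Scaled to the satellite cell markers it was 0.07 (adjusted p = 0.212).

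Eya1, which is needed for ear, kidney and muscle development, had 13.9, 13.6 and 15.1 CPM in controls and 13.5, 13.8 and 14.5 CPM in cKO samples. The groups overlapped, and the log2 difference was -0.05 (95% interval -0.18 to 0.07, adjusted p = 0.623). The interval runs from -11.5% to 4.93%, so a change of the size seen for Eya2 lies outside it.

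Dach1, the corepressor of the set, had very few counts. It was counted 7, 7 and 9 times in controls and 21, 24 and 13 times in cKO samples, or 0.127 ± 0.0182 and 0.359 ± 0.11 CPM. Every cKO sample was above every control, and cKO 3 was closest to them. Dach1 passed the filter on low counts, set at 10 in a sample of median depth, through the cKO samples alone, so a gene with its control level could have been tested only if it was higher in cKO. The log2 fold change was 1.45 ± 0.36 (SE, 95% interval 0.69 to 2.21, adjusted p = 0.0111). Without control 2 the adjusted p was 0.0571, at a log2 fold change of 1.35. With no filter the log2 fold change was 1.45 (edgeR adjusted p = 0.00282), on the same few counts. DESeq2 gave an unadjusted p of 0.00762 and no adjusted p for it. Scaled to the satellite cell markers, after the same filter, the value was 1.59 (adjusted p = 0.00393). That scaling raised the median of all genes by 0.14, so it is no separate support for a rise. Dach2, its paralog, had 1 to 4 counts per sample, and Six6 had 8 to 12, and neither was tested.

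**Figure D3:**
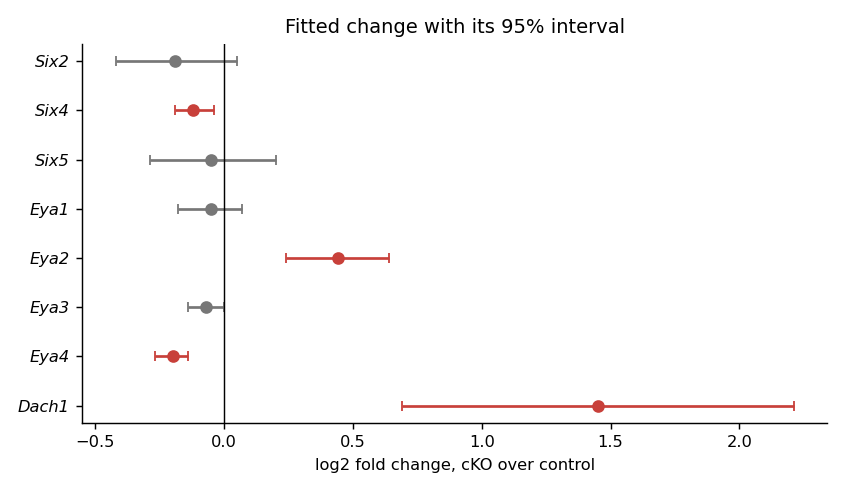
Log2 fold change of cKO over control for each gene from the edgeR fit, with the 95% interval as the bar, in red where the adjusted p was under 0.05. Eya2 and Dach1 lie above 0 and Eya4 and Six4 below it, and scaling to the satellite cell markers took Eya4 to -0.06 and Six4 to 0.03.

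Ratios between paralogs of 1 family compare genes within each sample, so the scaling of a sample drops out of them. Of 9 such ratios per length, 5 had groups that did not overlap, and all 5 were EYA pairs that hold Eya2 or Eya4, genes whose own groups did not overlap. Among single tested genes 31.4% did not overlap, and the share among ratios of other gene pairs was not computed, so the count is only a description. Eya4 over Eya2 was 20.7, 19.3 and 20.9 in controls and 14.4, 11.5 and 13.4 in cKO samples, a log2 difference of -0.63. Eya3 over Eya2 went from 8.77, 8.66 and 8.78 to 6.87, 5.56 and 6.15, and Eya1 over Eya2 from 1.55, 1.45 and 1.69 to 1.21, 0.984 and 1.17. Each of these has Eya2 as the denominator, so they are not independent of each other. The ratios of Eya4 to its paralogs other than Eya2 were lower in cKO samples by a small amount. Eya4 over Eya1 was 13.3, 13.3 and 12.4 in controls and 11.9, 11.7 and 11.4 in cKO samples, and Eya4 over Eya3 was 2.36, 2.22 and 2.38 against 2.1, 2.07 and 2.17. Each of the 5 had p = 0.1 in a two-sided exact permutation test, the smallest that 3 against 3 samples allow, and 0.18 after adjustment over the 9 ratios, so none could pass the threshold in this design.

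The remaining ratios overlapped between the groups. Eya3 over Eya1 differed by -0.02 on the log2 scale (exact p = 1). Six4 over Six2 was 7.15 to 8.76 in controls and 7.96 to 8.7 in cKO samples (log2 difference 0.07, exact p = 0.5). Six4 over Six5 differed by -0.07 (exact p = 0.6) and Six2 over Six5 by -0.14 (exact p = 0.4).

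Written as shares of the summed TPM of the listed genes of a family, Eya4 held 64.2% ± 0.665 (SD, n = 3) of the EYA total in controls and 61.1% ± 0.614 in cKO samples, with no overlap (exact permutation p = 0.1, adjusted p = 0.35 over 7 shares). Eya2 held 3.16% ± 0.108 and 4.7% ± 0.5, also with no overlap (exact p = 0.1, adjusted p = 0.35). Eya3 held 27.7% and 28.9%, and Eya1 4.95% and 5.23%. The EYA sum was 78.5 ± 1.95 TPM in controls and 76.4 ± 2.05 TPM in cKO samples (exact p = 0.4). Of the sine oculis genes examined, Six4 held 83% ± 1.05 of the total in controls and 83.2% ± 0.522 in cKO samples, with Six2 at 10.6% and 10.1% and Six5 at 6.41% and 6.74%. Their sum was 27.8 ± 1.1 TPM and 27.4 ± 1.76 TPM (exact p = 0.7). The TPM scale depends on the whole sample, so these sums do not show whether the total RNA of a family changed. In CPM, the 8 members together summed to 416 to 424 in controls and 379 to 392 in cKO samples. That CPM difference was not tested. The shares are among the listed genes only.

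**Figure D4:**
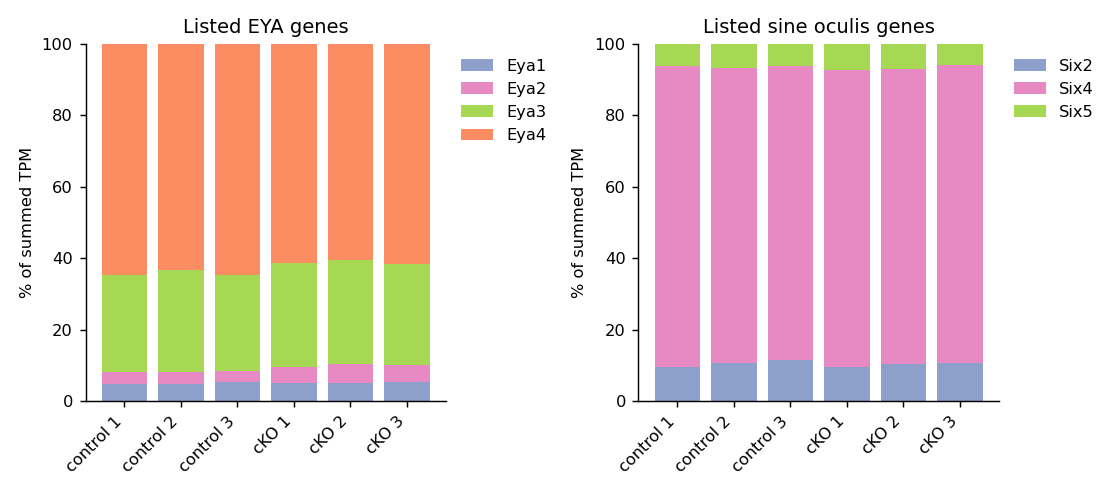
Share of each listed gene in the summed TPM of the listed EYA genes (left) and sine oculis genes (right) in each sample, in percent. Eya4 takes 63.4% to 64.6% of the EYA sum in controls and 60.5% to 61.6% in cKO samples, and the shares of Six2, Six4 and Six5 overlap between the groups.

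Around the members, 5 lists of genes tied to the same pathway were examined, 45 genes of which 43 were tested. Of these, 3 were higher in cKO and 12 lower, that is 34.9% called, with a median log2 fold change of -0.08, beside 15.8% called and a median of 0.00 over all tested genes. This count rests on single samples, with 8 called without control 1 and 23 without cKO 1 in place of 15. Myf5, Myod1 and Pax7 are in these lists and among the satellite cell markers, so the lists and those markers are not separate measurements.

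Of 7 Pax and homeobox factors that act upstream of or beside sine oculis genes, 6 were tested, 1 rose and 3 fell. Meox2 rose from 2.55 ± 0.3 to 5.6 ± 0.38 CPM (log2 fold change 1.10, edgeR adjusted p = 1.49e-06). It is a homeobox gene of somites and limb muscle that is also expressed in vessels. The part of the marker shifts above in the rise of Meox2 was not tested. Its paralog Meox1 fell from 4.5 ± 0.473 to 3.33 ± 0.0693 CPM (-0.46, adjusted p = 0.00345). Pax7, the satellite cell factor, fell from 39.3 ± 0.748 to 35.1 ± 2.08 CPM (-0.19, adjusted p = 0.00656), and Lbx1, a factor of migrating limb muscle precursors, from 20.9 ± 1.3 to 18.1 ± 1.37 CPM (-0.24, adjusted p = 0.013). Pax3 was not called.

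Of 13 genes known as sine oculis targets, 4 fell, 2 rose and 7 did not pass the test, with a median log2 fold change of -0.07. The myogenic factor Myf5 fell from 68.5 ± 1.26 to 53.9 ± 0.75 CPM (-0.37, adjusted p = 1.9e-06). Myog, which drives terminal differentiation, fell from 2112 ± 15.8 to 1876 ± 67.1 CPM (-0.20, adjusted p = 0.000626) and Myod1 from 773 ± 13.8 to 705 ± 23.8 CPM (-0.16, adjusted p = 0.00225). The creatine kinase gene Ckm fell by 0.19 on the log2 scale (adjusted p = 0.0124). Those that rose were Ccnd1, which encodes the cell cycle protein cyclin D1 (0.13, adjusted p = 0.00963), and Ezr, which encodes the membrane linker ezrin (0.17, adjusted p = 0.0232).

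Fast fibre genes gave 3 that fell and none that rose among 10 tested. The fast myosin heavy chains Myh2 (265 ± 5.84 to 210 ± 25.5 CPM, -0.36, adjusted p = 0.000942) and Myh1 (-0.21, adjusted p = 0.0227) fell, as did the light chain gene Mylpf (-0.22, adjusted p = 0.0242). Of 8 corepressor partners of DACH and SKI proteins, Ncor1 fell (-0.11, adjusted p = 0.0467) and 7 were not called. Of 6 genes of the EYA phosphatase and its substrate histone H2AX, Apbb1, which encodes an adaptor protein, fell (-0.17, adjusted p = 0.0358) and 5 were not called. With 1 call each, these last lists were near the 15.8% called over all genes, and their counts say nothing particular to them.

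**Figure D5:**
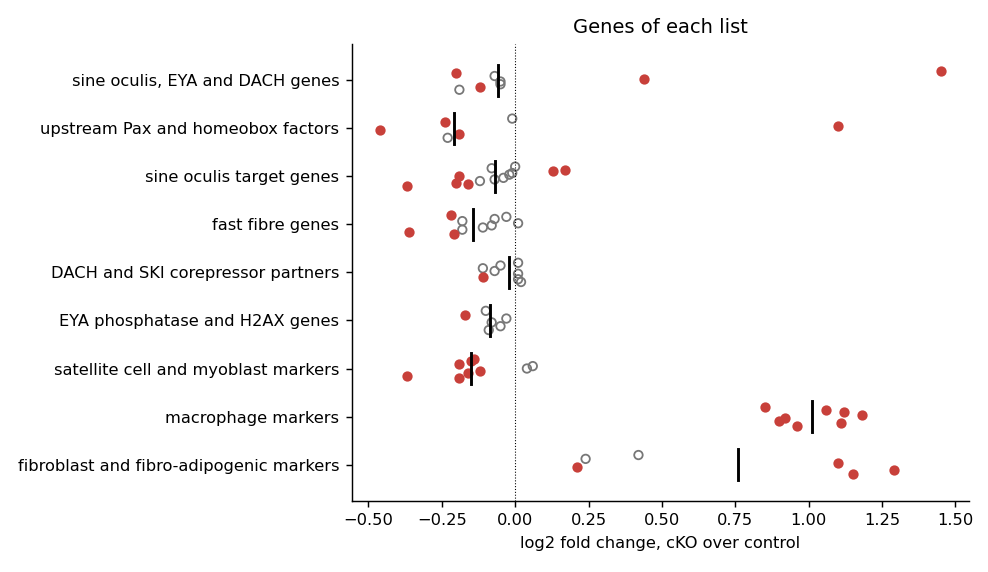
Log2 fold change of cKO over control for each tested gene of the sine oculis, EYA and DACH set, the pathway lists and 3 marker lists, with filled red points where the adjusted p was under 0.05 and a black bar at each list's median. The pathway lists have medians from -0.21 to -0.02, the satellite cell markers -0.15 and the macrophage markers 1.01.

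For the most abundant gene of each family, the genes with the most similar pattern over the 6 samples were found by Pearson correlation of log2 CPM among 14615 genes with at least 100 counts in every sample. For Six4 these were Btbd7 (r = 0.998), BC067074 (r = 0.996) and Zfp703 (r = 0.996). For Eya4 they were Morc3 (r = 0.996), Sytl2 (r = 0.994) and Msi2 (r = 0.994), and for Dach1 Pcdhb17 (r = 0.996), Alpk1 (r = 0.995) and Tgfbi (r = 0.994). Dach1 had 7 to 24 counts behind each point. With 6 points shared by all genes and so many candidates, these name patterns that resemble each other and no more.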

How the data were processed

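Total RNA (400 ng) was depleted of ribosomal RNA and made into stranded libraries that were sequenced as single 75-base reads. The authors aligned reads to mm10 with Bowtie2 2.3.4.2 and counted them per gene with featureCounts 1.6.3, and these raw counts were deposited. Bowtie2 does not split reads, so reads over exon junctions can be lost, and the strand and multi-mapping settings are not given in the sources used here. Also deposited were normalized counts and a comparison table with the mean, log2 fold change, standard error and p-values of the authors' own DESeq2 2.11.40.6 run. Neither was used.

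GENCODE M21, on the same build, held each of the 55536 gene identifiers. Samples were grouped by genotype from their labels. Differences were tested with edgeR 4.0.16 in R 4.3.3 (filterByExpr with a minimum count of 10, TMM, quasi-likelihood test, genotype alone in the model) over 22404 genes, with calls made where the Benjamini-Hochberg adjusted p was under 0.05. The biological coefficient of variation was 3.92%. CPM used each sample's total of 47944477 to 63323577 counts. Paralog ratios took the counts with 0.5 added, per exon length, and were compared, like shares of TPM, by two-sided exact permutation tests (scipy 1.17.1). The fit was tested on simulated counts, and the permutation test was checked on a small made-up example of separated groups. Alternatives were DESeq2 1.42.0, RLE size factors, total-count scaling, no filter, a replicate block, 2.0 added counts, the longest transcript as length and leaving out each sample. Scaling to the satellite cell markers was added after seeing the data.

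The members, gene lists and tests were chosen with earlier results of these data known. Named were all members, Hira and the called genes of each pathway list (at most 4 with the smallest adjusted p). Also named were the genes of non-marker lists of 5 or fewer (Six3, Six6 and Dach2), and the 3 most similar genes per family. Ckm, Ezr, Dmpk, Pax3 and Des lie outside this rule and were named after their values were seen. For Aldoa, with 2 identifiers, the one with more counts was used.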

Additional observations from a re-analysis of the deposited data

How the results depend on the processing

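The same-numbered control and cKO samples did not deviate together (r = -0.0129, -0.00451 and -0.0145 over genes), so the numbers were not taken as pairs. With a replicate block 3152 genes were called in place of 3549, and 3 of the 8 members in place of 4, since Six4 (log2 fold change -0.12) had an adjusted p of 0.0594. Total-count scaling gave -0.09 (adjusted p = 0.0944) for Six4. Leaving out 1 sample at a time gave 2505 to 3887 called genes, 917 to 1673 genes lower in cKO and 8 to 23 called genes of the pathway lists, against 3549, 1448 and 15. The lower counts without a control were 917 (control 1), 934 (control 2) and 960 (control 3), and the pathway lists had 8 without control 1 and 23 without cKO 1. Among single genes, Six5 ranged from -0.14 to 0.04, the latter without cKO 3. DESeq2 called 2855 genes and no filter 4036. Eya4 and Eya2 were called under each of the 11 alternative fits other than the marker scaling below. The longest transcript as length gave Eya4 72.7% of the EYA sum in controls and 70% in cKO samples, and Six4 88.6% and 88.7% of the sum of Six2, Six4 and Six5.

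Scaling to the satellite cell markers, chosen after seeing the data, moved the median of all genes by 0.14. Six4 then had 0.03, Six5 0.10, Eya1 0.09 and Eya3 0.07, none past the threshold, Eya4 -0.06 (adjusted p = 0.24) and Hira -0.29 (adjusted p = 0.109). Depth limits Six2, Six5 and Dach1 most, where counting error was 7.91%, 8.35% and 27.2% of the level.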
